A study of Mus musculus with 6 samples.

Results

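Vascular endothelial growth factor (VEGF) signalling was examined in sorted, endothelium-enriched cells from mouse embryos through 9 genes, chosen by name: the receptor genes Kdr, Flt1 and Flt4, the neuropilin genes Nrp1 and Nrp2, and the ligand genes Vegfa, Vegfb, Vegfc and Pgf. All 9 were measured, among 18193 genes with a probe set of their own, by 22 of 34945 such probe sets. The 6 arrays cover the heart tube, the caudal-half tissue of the embryo and the yolk sac, with 2 independent biological replicates of each. All samples came from mixed-background mice at embryonic day 9.5, and cells were sorted by flow cytometry as CD31+, CD41- and CD45- directly after isolation. The sample codes contain "Wt", and the labels name no allele or treatment and do not say how many embryos made up a sample.

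VEGF ligands are secreted dimers that bind receptor tyrosine kinases on endothelial cells. Kdr (VEGFR2) is the main signalling receptor for Vegfa. Flt1 (VEGFR1) binds Vegfa, Vegfb and Pgf and also acts as a decoy, and Flt4 (VEGFR3) is the receptor for Vegfc. Neuropilins are co-receptors with short cytoplasmic tails that also bind class 3 semaphorins. In the embryo the system drives the formation of the first vessels, including those of the yolk sac, and later the sprouting of lymphatic vessels through Vegfc and Flt4. In the heart, myocardial Vegfa acts on the endocardium, the inner endothelial lining.

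Levels are given as the natural log of the deposited signal, read as the log2 value of RMA, the authors' normalization. The labels do not name the base. Should the signal be linear instead, every difference and standard error is larger by a factor of 1.44, while the p-values do not change. Differences were tested with limma over all 18193 genes, and a gene was called at a Benjamini-Hochberg adjusted p under 0.05. Each gene is represented by its brightest probe set. The level of 1 gene cannot be set against that of another on this scale.

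Replicate arrays correlated at r = 0.982 to 0.987 over all named probe sets, and arrays of different tissues at 0.944 to 0.967. All 18 genes of a list of endothelial markers were above the range of the 27 bacterial control probe sets (1.33 to 4.03) in every tissue. Pecam1, which encodes CD31, was at 9.49 and 9.61 in heart tube, 10.08 and 9.83 in caudal-half tissue, and 10.09 and 9.82 in yolk sac, and was not called in any comparison. Ptprc, which encodes CD45, averaged 2.47, 2.79 and 2.73 in heart tube, caudal-half tissue and yolk sac, inside the bacterial control range. Itga2b, which encodes CD41, averaged 6.87, 6.61 and 8.28 in the same order, above the bacterial control range in every tissue. Although the sort was against CD41, Itga2b was called lower than in yolk sac both in heart tube (-1.41, limma adjusted p = 0.00687) and in caudal-half tissue (-1.67, limma adjusted p = 0.00522).

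The genes of the receptors were lowest in heart tube. Against the yolk sac, all 3 VEGF receptor genes and both neuropilin genes were lower in heart tube, together with Vegfc. Against the caudal-half tissue, only Flt4 and Nrp2 were called, both lower by about the same amount. No gene of the group was called between caudal-half tissue and yolk sac. Neither Vegfa nor Vegfb nor Pgf was called in any of the 3 comparisons.

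In counts, 2 of 9 genes were lower and 0 higher in heart tube against the caudal-half tissue, where 2.65% of all genes were called lower and 2.86% higher (5.51% in either direction). In the heart tube against the yolk sac 6 of 9 were lower and 0 higher, where 6.67% of all genes were called lower and 5.14% higher (11.8% in all). In the caudal-half tissue against the yolk sac limma called 0 of 9, where 4.86% of all genes were lower and 4.22% higher (9.08% in all). An unadjusted p under 0.05 was reached there by 4 of the 9 (Flt1, Nrp1, Nrp2 and Vegfc) and by 4337 of all genes. The median difference of the 9 genes was -0.51 for heart tube minus caudal-half tissue, -1.0 for heart tube minus yolk sac and -0.49 for caudal-half tissue minus yolk sac. The medians over all genes were -0.08, -0.06 and 0.02. The same all-gene shares and medians apply to the lists of genes counted below.

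**Figure D1:**
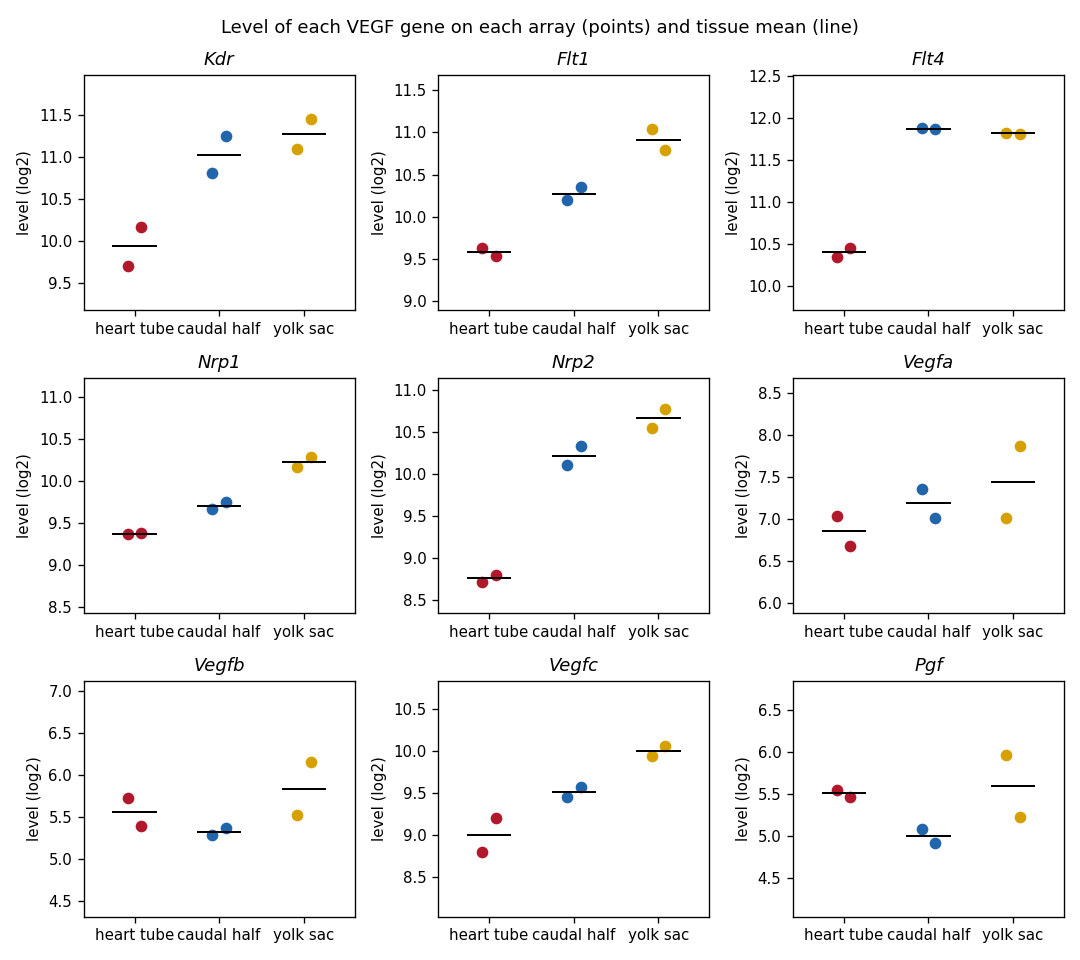
Level (log2 scale, vertical axis) of the 9 VEGF genes on each of the 6 arrays (points) with the mean of each tissue (lines), every panel spanning the same range. Flt4 and Nrp2 show heart tube arrays well below both other tissues, whereas the arrays of Vegfa overlap between tissues.

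The promoter sequences of the 4 genes that carry the receptor result are shown because factors of the ETS family, which bind a GGAA core, are known to act on endothelial genes. Each is the 250 bases before the gene's start in RefSeq (GRCm38.p6), read 5′ to 3′ on the gene's own strand. Capitals mark every GGAA, or TTCC where the core lies on the other strand.
Kdr, chr5:75978456-75978705, minus strand: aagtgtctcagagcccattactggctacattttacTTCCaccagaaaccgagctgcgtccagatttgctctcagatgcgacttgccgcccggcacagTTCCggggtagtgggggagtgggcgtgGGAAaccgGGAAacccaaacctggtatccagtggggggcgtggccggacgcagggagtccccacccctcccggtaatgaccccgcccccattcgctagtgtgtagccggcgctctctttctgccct
Flt1, chr5:147726012-147726261, minus strand: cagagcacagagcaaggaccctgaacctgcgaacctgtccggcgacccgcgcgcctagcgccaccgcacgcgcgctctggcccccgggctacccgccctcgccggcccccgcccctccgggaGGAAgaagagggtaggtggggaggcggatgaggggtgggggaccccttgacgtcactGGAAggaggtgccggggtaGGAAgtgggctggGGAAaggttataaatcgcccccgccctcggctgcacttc
Flt4, chr11:49609429-49609678, plus strand: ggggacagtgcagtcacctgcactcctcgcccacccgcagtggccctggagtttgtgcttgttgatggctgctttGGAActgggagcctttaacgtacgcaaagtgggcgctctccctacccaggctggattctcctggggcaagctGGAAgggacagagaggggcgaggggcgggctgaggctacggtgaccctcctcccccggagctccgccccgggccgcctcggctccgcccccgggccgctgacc
Nrp2, chr1:62703067-62703316, plus strand: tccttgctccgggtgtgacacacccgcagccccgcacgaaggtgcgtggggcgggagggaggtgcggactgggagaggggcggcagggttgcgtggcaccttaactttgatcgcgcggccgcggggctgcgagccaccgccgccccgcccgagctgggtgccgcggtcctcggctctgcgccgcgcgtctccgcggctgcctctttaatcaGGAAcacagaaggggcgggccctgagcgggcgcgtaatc
The core occurred 4 times before Kdr, 4 times before Flt1, 2 times before Flt4 and 1 time before Nrp2. A window of this length held it in 93.4% of all 32851 promoters, so its presence does not set these genes apart. The longer form CCGGAA, on either strand and overlapping the core, occurred once before Kdr, against 12% of all promoters, and CAGGAA once before Nrp2, against 25.7%. Neither form was found in the windows of Flt1 and Flt4. The SOX letters ACAAT (27.7% of all promoters, either strand) and the hypoxia letters ACGTG (16.6%) were in none of these 4 windows.

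Kdr read 9.70 and 10.17 in heart tube, 10.81 and 11.25 in caudal-half tissue, and 11.10 and 11.45 in yolk sac. Both heart tube arrays lay below all 4 others, while caudal-half tissue and yolk sac overlapped. The heart tube was lower than the yolk sac by -1.34 ± 0.25 (SE; limma adjusted p = 0.0209). The same gene differed by -1.09 ± 0.25 between heart tube and caudal-half tissue, which missed the threshold (limma adjusted p = 0.0661; unadjusted 95% interval -1.70 to -0.48). That difference was called when genes were taken as the mean of their probe sets (limma adjusted p = 0.0483) and with an intensity trend (limma adjusted p = 0.0130). It was also called with the replicate number as a block. Averaging probe sets left the values of Kdr itself unchanged, and altered only the error and the adjustment. Between caudal-half tissue and yolk sac the difference was -0.25, with an interval of -0.86 to 0.37. Kdr has 1 probe set. Its call against the yolk sac was lost without the first heart tube array (-1.10, limma adjusted p = 0.114) and without the second yolk sac array (-1.16, limma adjusted p = 0.0872). The spread of Kdr within each tissue was wider than that of Flt4, with SDs of 0.33, 0.31 and 0.25 in heart tube, caudal-half tissue and yolk sac (n = 2 each). In each tissue the second array of Kdr read higher than the first.

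Flt1 read 9.62 and 9.53 in heart tube, 10.20 and 10.35 in caudal-half tissue, and 11.04 and 10.79 in yolk sac on its brightest probe set. The 3 tissues did not overlap on this probe set, and their order was heart tube, caudal-half tissue, yolk sac. Only the difference between the ends of that order was called, at -1.34 ± 0.18 for heart tube minus yolk sac (limma adjusted p = 0.00538). The neighbouring tissues differed by -0.70 for heart tube minus caudal-half tissue (limma adjusted p = 0.0825) and by -0.64 for caudal-half tissue minus yolk sac (limma adjusted p = 0.0776). Both were called with an intensity trend (each limma adjusted p = 0.0115), and the first also with the mean of probe sets (limma adjusted p = 0.0444). The call was kept without each single array, with differences of -1.46 to -1.21.

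The 4 probe sets of Flt1 did not place the yolk sac alike. All 4 read lower in heart tube than in both other tissues, by -0.92 to -0.50 against the caudal-half tissue and by -1.35 to -0.38 against the yolk sac. In order of brightness, the first and the fourth probe set were called lower against the yolk sac, whereas the second and the third were not (limma adjusted p = 0.125 and 0.297 over all probe sets). On the fourth probe set the values were 7.53 and 7.35 in heart tube, 7.72 and 8.16 in caudal-half tissue, and 8.81 and 8.78 in yolk sac. On the third they were 8.31 and 8.50 in heart tube, 9.18 and 9.48 in caudal-half tissue, and 8.89 and 8.68 in yolk sac. The caudal-half tissue was thus the highest tissue on the third probe set and the yolk sac on the fourth.

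The gap between the first and the third probe set on the same array was 1.31 and 1.04 in heart tube, 1.02 and 0.87 in caudal-half tissue, and 2.15 and 2.11 in yolk sac. It was widest on both yolk sac arrays. In a test chosen after these values were seen, over the 16752 pairs of probe sets of a gene, the gap differed by -1.18 ± 0.23 for caudal-half tissue minus yolk sac without passing (limma adjusted p = 0.171). Of the 13 such pairs of the VEGF genes, 0 were called by limma in any comparison. The gap between the first and the fourth probe set stayed between 2.01 and 2.48 on all 6 arrays. The files do not say which Flt1 transcripts each probe set detects.

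**Figure D2:**
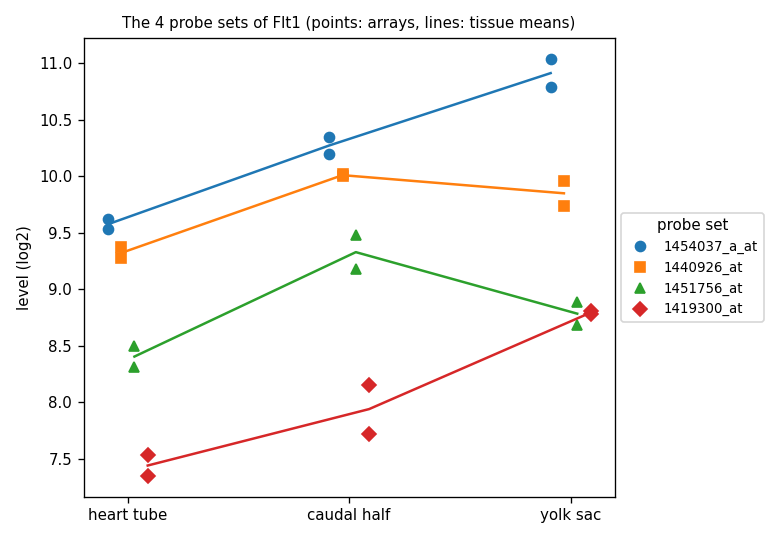
Level (log2 scale, vertical axis) of the 4 Flt1 probe sets on each array (points), with lines joining tissue means. The brightest (blue) and the fourth (red) are highest in yolk sac, and the second (orange) and the third (green) are highest in caudal-half tissue.

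Flt4, the receptor of Vegfc, was at 10.35 and 10.45 in heart tube, 11.88 and 11.86 in caudal-half tissue, and 11.82 and 11.81 in yolk sac. Heart tube arrays were far below the other 4, which nearly coincided. The heart tube was lower than the caudal-half tissue by -1.47 ± 0.16 (limma adjusted p = 0.0044) and lower than the yolk sac by -1.42 ± 0.16 (limma adjusted p = 0.00279). This is 2.77-fold lower than the caudal-half tissue on the log2 reading and 4.36-fold lower if the deposited signal is linear. Of all genes, 1.67% were at least as much lower in heart tube than in caudal-half tissue. Caudal-half tissue and yolk sac differed by 0.05, with an unadjusted 95% interval of -0.32 to 0.43. The second probe set was also called lower in heart tube against both tissues, at -1.46 and -1.79. Both calls of Flt4 held without each single array (highest limma adjusted p 0.0443).

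Nrp2, a co-receptor known for its role with Flt4 in lymphatic vessels, was at 8.71 and 8.80 in heart tube, 10.11 and 10.33 in caudal-half tissue, and 10.55 and 10.77 in yolk sac. No heart tube array came near the others. The heart tube was lower than the caudal-half tissue by -1.46 ± 0.18 (limma adjusted p = 0.0072) and lower than the yolk sac by -1.90 ± 0.18 (limma adjusted p = 0.00152), the largest differences of the neuropilin pair. Against the yolk sac that is 3.74-fold on the log2 reading and 6.72-fold if the signal is linear. All 4 probe sets of Nrp2 were called lower in heart tube in both comparisons, with differences of -1.59 to -1.37 against the caudal-half tissue and -2.66 to -1.59 against the yolk sac. The caudal-half tissue read -0.44 relative to the yolk sac and was not called (limma adjusted p = 0.196). Without the first heart tube array the call against the caudal-half tissue was lost (-1.42, limma adjusted p = 0.0599).

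Nrp1, a co-receptor known to bind Vegfa with Kdr, had smaller differences. It read 9.37 and 9.38 in heart tube, 9.68 and 9.75 in caudal-half tissue, and 10.17 and 10.29 in yolk sac. The arrays of the 3 tissues did not overlap, and the order was again heart tube, caudal-half tissue, yolk sac. Only heart tube minus yolk sac was called, at -0.85 ± 0.16 (limma adjusted p = 0.0191). The difference was -0.34 for heart tube minus caudal-half tissue (limma adjusted p = 0.314) and -0.52 for caudal-half tissue minus yolk sac (limma adjusted p = 0.105; 0.0221 with an intensity trend). Its 4 probe sets had the same sign in all 3 comparisons, and 2 of them were called lower in heart tube than in yolk sac. The call was lost without either heart tube array and without either yolk sac array (limma adjusted p 0.0582 to 0.104).

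**Figure D3:**
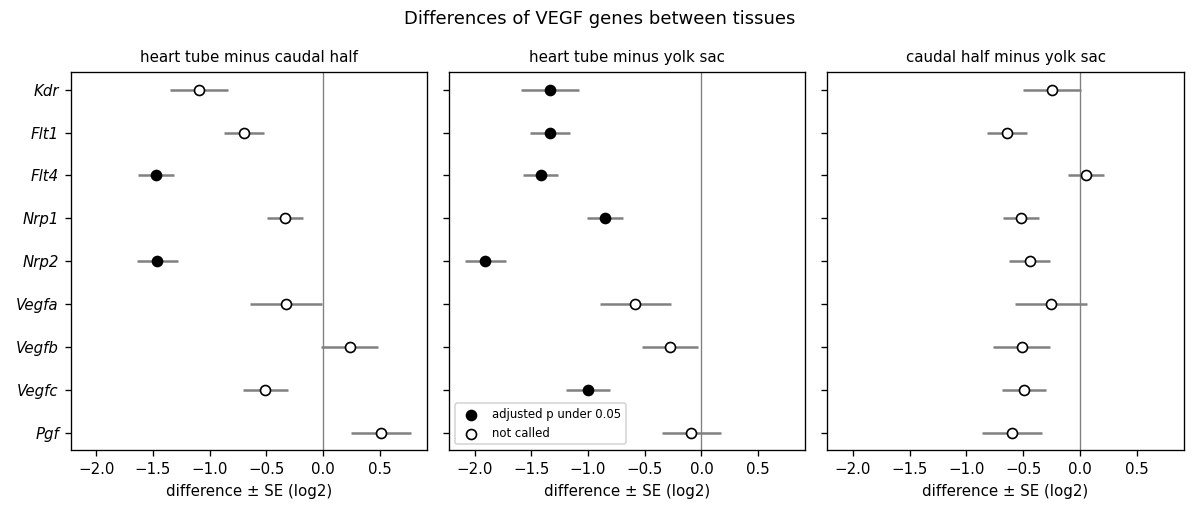
Differences between tissues (log2 scale, horizontal axis; bars are standard errors from limma) for the 9 VEGF genes in the 3 comparisons. Filled points are called, 2 for heart tube minus caudal-half tissue, 6 for heart tube minus yolk sac and 0 for caudal-half tissue minus yolk sac.

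Among the ligands, Vegfc followed the receptors. It was at 8.79 and 9.19 in heart tube, 9.44 and 9.56 in caudal-half tissue, and 9.93 and 10.06 in yolk sac. The tissues did not overlap. The heart tube was lower than the yolk sac by -1.0 ± 0.20 (limma adjusted p = 0.0228). The other differences were -0.51 for heart tube minus caudal-half tissue (limma adjusted p = 0.226) and -0.49 for caudal-half tissue minus yolk sac (limma adjusted p = 0.192). All 3 probe sets were lowest in heart tube and highest in yolk sac, and 2 of them were called for heart tube minus yolk sac. That call of the brightest probe set was lost without the first heart tube array (-0.80, limma adjusted p = 0.122) and without the first (-1.07, limma adjusted p = 0.0715) or the second yolk sac array (-0.94, limma adjusted p = 0.0889).

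Vegfa, the main ligand of Kdr and Flt1, was at 7.04 and 6.69 in heart tube, 7.36 and 7.02 in caudal-half tissue, and 7.02 and 7.87 in yolk sac. The tissues overlapped and no comparison was called. The differences were -0.33 for heart tube minus caudal-half tissue (95% interval -1.08 to 0.43), -0.58 for heart tube minus yolk sac (-1.34 to 0.17) and -0.26 for caudal-half tissue minus yolk sac (-1.01 to 0.50). Its second probe set read 6.64 and 6.33 in heart tube, 5.92 and 6.07 in caudal-half tissue, and 6.58 and 6.64 in yolk sac. There the caudal-half tissue was lowest, and heart tube minus caudal-half tissue was 0.49, opposite in sign to the brighter probe set, with neither called. The direction of Vegfa between heart tube and caudal-half tissue is therefore not settled by these arrays.

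Vegfb, a ligand of Flt1, was at 5.73 and 5.40 in heart tube, 5.29 and 5.37 in caudal-half tissue, and 5.53 and 6.15 in yolk sac. Heart tube and yolk sac overlapped. Pgf, placental growth factor, another ligand of Flt1, was at 5.55 and 5.47 in heart tube, 5.08 and 4.92 in caudal-half tissue, and 5.97 and 5.23 in yolk sac. Both caudal-half tissue arrays of Pgf were the lowest, and the heart tube lay inside the range of the yolk sac. Heart tube minus caudal-half tissue was 0.23 for Vegfb (95% interval -0.37 to 0.84) and 0.51 for Pgf (-0.12 to 1.14). Each has 1 probe set, and neither was called in any comparison (lowest limma adjusted p 0.230).

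The profiles of the 9 genes were also set against each other and against all genes by the root mean square distance between values centred on the gene's mean over the 6 arrays. Among the 9 genes the closest pair was Nrp1 and Vegfc (0.136), followed by Flt1 and Vegfc (0.225), Flt1 and Nrp1 (0.234) and Flt4 and Nrp2 (0.251). Of all 18193 genes, the closest to Nrp1 were Mrpl58 (0.0319) and Sparc (0.0407). Closest to Flt4 were Sipa1 (0.0877) and Notch4 (0.106), and closest to Nrp2 were Ctla2b (0.0992) and Was (0.118). For Flt1 they were Vamp5 (0.0830) and Itga6 (0.0857), for Kdr Abhd6 (0.118) and Myo1e (0.128), and for Vegfc Lrrfip1 (0.0680) and Fam107b (0.0766). With 6 arrays in 3 tissues this is a description of likeness only.

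Markers of endothelium and of other cell types also differed between the tissues, in directions that varied by list. Of the 18 endothelial markers, 8 were lower and 1 higher in heart tube than in caudal-half tissue, with a median difference of -0.77, and 8 were lower and 0 higher than in yolk sac (-0.76). Among the lower ones were Cldn5 (-3.40 and -3.54) and Robo4 (-2.31 and -2.87), both far below these medians. The 1 higher was Eng (0.96, limma adjusted p = 0.0207). Tek (0.78), Ramp2 (0.36) and Icam2 (0.07) also read higher in heart tube than in caudal-half tissue, without being called. The log2 of the summed signal of the 18 (2 raised to each level) was 13.69 to 13.78 in heart tube, 14.13 to 14.17 in caudal-half tissue and 14.47 to 14.54 in yolk sac. Of 16 cardiomyocyte markers, 7 were higher in heart tube than in caudal-half tissue and 9 than in yolk sac, with 0 lower. Their summed signal was 11.71 to 11.73 in heart tube, 9.72 to 9.81 in caudal-half tissue and 8.87 to 8.93 in yolk sac, and Ryr2 and Nkx2-5 were inside the bacterial control range in all 3.

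Of 17 visceral endoderm markers, 14 were lower in heart tube than in yolk sac and 13 lower in caudal-half tissue than in yolk sac, with 0 higher. Their summed signal was 10.57 to 10.58 in heart tube, 10.97 to 11.16 in caudal-half tissue and 14.87 to 14.90 in yolk sac, while Foxa2 was inside the bacterial control range throughout and Alb within it in caudal-half tissue and yolk sac. Of 14 epithelial markers, 6 were lower in heart tube than in caudal-half tissue and 8 than in yolk sac (summed signal 8.95 to 9.01, 10.18 to 10.25 and 11.59 to 11.67 in heart tube, caudal-half tissue and yolk sac). Of 13 mesenchymal markers, 7 were higher in heart tube than in caudal-half tissue, and 4 were higher and 5 lower than in yolk sac (summed signal 12.53 to 12.64, 10.45 to 10.53 and 13.26 to 13.32 in that order). Of 13 erythroid markers, 4 were lower and 1 higher in heart tube than in caudal-half tissue, and 5 lower and 1 higher than in yolk sac (11.14 to 11.37, 11.74 to 11.97 and 13.64 to 13.73). Of 12 leukocyte and megakaryocyte markers, 1 was lower in heart tube than in caudal-half tissue (Itgb3), 2 lower than in yolk sac (Itga2b and Itgb3) and 1 lower in caudal-half tissue than in yolk sac (Itga2b), with 0 higher (8.50 to 8.73, 9.01 to 9.07 and 9.22 to 9.30). Of the 12, 6 were inside the bacterial control range in every tissue. Control probe sets of Gapdh at the transcript's 3′ end, compared with its 5′ end as a measure of RNA integrity, were higher by 1.88 and 1.98 in heart tube, 1.67 and 1.58 in caudal-half tissue, and 2.04 and 1.81 in yolk sac, while the same gap of beta-actin was -0.10 to 0.01 on all 6 arrays. The part of these cells, or of RNA quality, in the differences of the VEGF genes was not tested. In bulk samples, fewer cells of a type and less RNA per cell cannot be told apart.

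The 9 genes were also expressed relative to the mean of the 18 endothelial markers on each array, a setting chosen after the data were seen. That mean differed by -0.68 between heart tube and caudal-half tissue and by -1.04 between heart tube and yolk sac, so that the median of all genes became 0.61 and 0.98, and 45.4% and 81.5% of all genes were called. The markers did not shift alike against the yolk sac. Their median difference there was -0.76, and Cldn5 (-3.54), Clec14a (-2.90) and Robo4 (-2.87) were furthest below it. Scaling by the median was not tried. Flt4 and Nrp2 remained lower in heart tube than in caudal-half tissue, by -0.79 and -0.78 (limma adjusted p = 0.0173 and 0.0186). Against the yolk sac Nrp2 remained lower at -0.87 (limma adjusted p = 0.00433), whereas Flt4 (-0.38), Kdr (-0.30) and Flt1 (-0.30) no longer passed (limma adjusted p = 0.0719, 0.255 and 0.196). On this scale Vegfb and Pgf were higher in heart tube, at 0.92 and 1.2 against the caudal-half tissue and 0.76 and 0.95 against the yolk sac (limma adjusted p 0.0220 to 0.0251), beside the all-gene medians of 0.61 and 0.98.

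**Figure D4:**
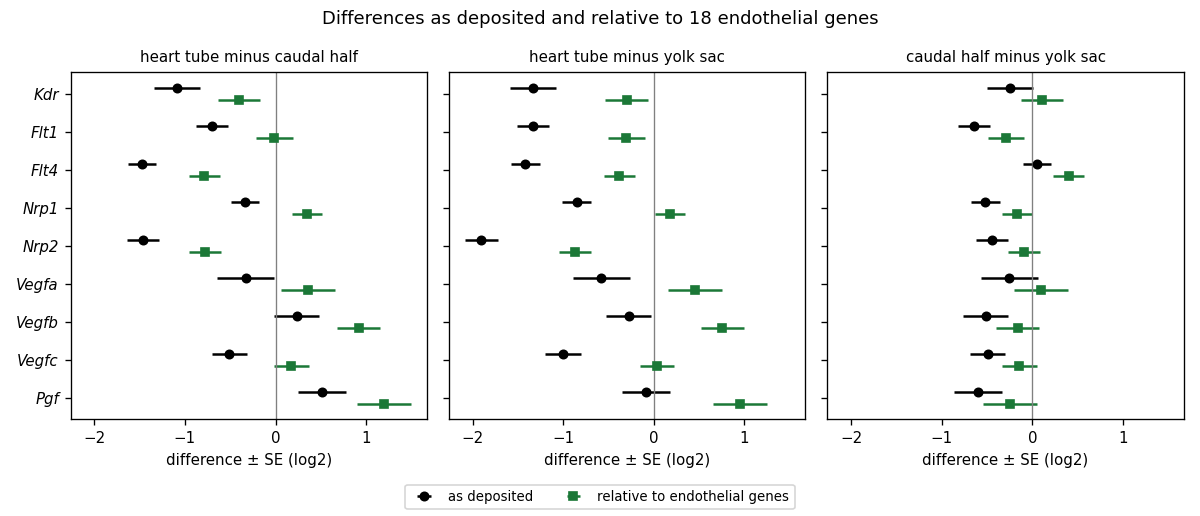
Differences of the 9 VEGF genes (log2 scale, horizontal axis; bars are standard errors) as deposited (black circles) and relative to the mean of 18 endothelial markers (green squares). Kdr, Flt1, Flt4 and Nrp2 stay below 0 in both comparisons of the heart tube on either scale, Flt1 only just against the caudal-half tissue. Nrp1, Vegfa and Vegfc change side in both comparisons, and Vegfb and Pgf change side against the yolk sac.

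Genes that process VEGF-C, or belong to the family beside the 9, were measured for 7 of 9 listed symbols. Of these 7, 2 were higher and 0 lower in heart tube than in caudal-half tissue, 2 higher and 2 lower than in yolk sac, and 0 higher and 2 lower in caudal-half tissue than in yolk sac. The median differences were 0.14, 0.13 and -0.37. Furin, a proprotein convertase that cleaves VEGF-C, was at 9.37 and 9.16 in heart tube, 7.73 and 7.64 in caudal-half tissue, and 7.96 and 8.03 in yolk sac. It was higher in heart tube by 1.58 ± 0.17 and 1.27 ± 0.17 (limma adjusted p = 0.00428 and 0.00543). Pcsk5, another convertase of VEGF-C, was at 8.68 and 8.44 in heart tube, 6.40 and 6.03 in caudal-half tissue, and 7.37 and 7.44 in yolk sac. It was higher in heart tube by 2.35 and 1.16 and lower in caudal-half tissue than in yolk sac by -1.19, the last 2 being lost on leaving out at least 1 array. Both convertase genes thus read highest in the tissue in which Vegfc read lowest. Ctsd, the protease cathepsin D, was lower in heart tube (-1.61) and caudal-half tissue (-1.54) than in yolk sac. Ccbe1, a secreted cofactor of VEGF-C cleavage, was lower in heart tube than in yolk sac (-0.95) but its levels of 2.82 to 4.02 were all inside the bacterial control range, and the call was lost on leaving out at least 1 array. Vegfd, a ligand of Flt4, read 2.71 to 3.04 on all 6 arrays, inside the bacterial control range.

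Of 10 genes of oxygen sensing, which is known to control Vegfa, 1 was higher and 1 lower in heart tube in each of its comparisons, and 1 was lower in caudal-half tissue than in yolk sac (medians 0.03, 0.083 and -0.021). Epas1, which encodes HIF-2alpha, an oxygen-regulated factor of endothelium, was at 9.07 and 9.0 in heart tube, 9.86 and 10.02 in caudal-half tissue, and 11.34 and 11.28 in yolk sac. It was lower in heart tube than in caudal-half tissue by -0.90 ± 0.16 and than in yolk sac by -2.28 ± 0.16, and lower in caudal-half tissue than in yolk sac by -1.37 ± 0.16 (limma adjusted p = 0.0288, 0.000558 and 0.00527). The first of these calls was lost without any 1 of the 4 arrays compared (highest limma adjusted p 0.152), while the other two held. Its order of tissue means was that of Kdr, Nrp1, Nrp2 and Vegfc, and of the brightest probe sets of Flt1 and Vegfa. Not every other probe set of Flt1 and Vegfa had that order. Some endothelial markers, among them Cdh5, Esam, Erg and Sox18, also had that order. A link of Epas1 with these genes was not tested. Hif3a, a related factor, was higher in heart tube by 1.51 and 1.08, both lost on leaving out at least 1 array. Hif1a, chosen after its values were seen, was not called in any comparison and read 10.34 and 10.49 in heart tube, 10.09 and 10.34 in caudal-half tissue, and 10.04 and 10.22 in yolk sac.

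Class 3 semaphorins and plexins, the other partners of the neuropilins, had calls in both directions in heart tube. Of 12, 1 was higher and 1 lower in heart tube than in caudal-half tissue, 2 higher and 2 lower than in yolk sac, and 0 differed between caudal-half tissue and yolk sac by limma (4337 of 18193 genes had an unadjusted p under 0.05 there). The medians were -0.10, -0.38 and -0.098, and 5.51%, 11.8% and 9.08% of all genes were called in these comparisons. Sema3a, a ligand of Nrp1, was at 8.59 and 8.65 in heart tube, 5.91 and 6.10 in caudal-half tissue, and 5.35 and 5.41 in yolk sac, higher in heart tube by 2.61 ± 0.16 and 3.24 ± 0.16. Sema3g, a semaphorin of endothelium known to bind Nrp2, ran the other way at 7.18 and 7.26 in heart tube, 9.14 and 9.08 in caudal-half tissue, and 9.46 and 9.62 in yolk sac. It was lower in heart tube by -1.89 ± 0.16 and -2.32 ± 0.16 (limma adjusted p = 0.00196 and 0.000524). Plxna4 was higher (1.58) and Plxnd1, an endothelial semaphorin receptor, lower (-0.74) in heart tube than in yolk sac. One yolk sac array of Plxna4 (4.01) was inside the bacterial control range, and both of these calls were lost on leaving out at least 1 array.

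Genes known to be induced by VEGF in endothelial cells did not move as 1 group. Of 19, 7 were lower and 3 higher in heart tube than in caudal-half tissue, 7 lower and 2 higher than in yolk sac, and 2 lower and 2 higher in caudal-half tissue than in yolk sac. The median differences were -0.51, -0.21 and 0.14. Esm1, a secreted proteoglycan of sprouting tip cells, was at 2.48 and 2.68 in heart tube, 7.31 and 7.55 in caudal-half tissue, and 7.14 and 7.25 in yolk sac, lower in heart tube by -4.85 ± 0.18 and -4.61 ± 0.18 (limma adjusted p = 0.000146 and 0.000101). Its heart tube values lay inside the bacterial control range. Apln, the tip cell peptide apelin, was at 2.63 and 3.23 in heart tube, 7.30 and 7.76 in caudal-half tissue, and 4.52 and 4.71 in yolk sac, with its heart tube arrays also within that range. It was lower in heart tube by -4.60 and -1.69, and higher in caudal-half tissue than in yolk sac by 2.91.

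Other VEGF-induced genes were higher in heart tube. Plat, tissue plasminogen activator, was higher by 2.61 ± 0.37 than in caudal-half tissue and by 3.85 ± 0.37 than in yolk sac. Rcan1, a calcineurin inhibitor, was at 10.70 and 10.88 in heart tube, 8.76 and 8.96 in caudal-half tissue, and 9.98 and 10.22 in yolk sac. It was higher in heart tube than in caudal-half tissue by 1.93 ± 0.18 (limma adjusted p = 0.00282) and lower in caudal-half tissue than in yolk sac by -1.24 ± 0.18. Hlx, a homeobox factor, was lower in heart tube than in caudal-half tissue (-2.01), and Icam1, a leukocyte adhesion molecule, lower than in yolk sac (-2.01). Vcam1, another adhesion molecule, was lower in caudal-half tissue than in yolk sac (-2.14), and Dusp5, an ERK phosphatase, was higher in caudal-half tissue than in yolk sac (0.98). Outside the naming rule, these genes had further calls. In heart tube, Icam1 (-1.51) and Dusp5 (-0.93) were lower than in caudal-half tissue, and Hlx was lower than in yolk sac (-1.30). Vcam1 in heart tube was higher than in caudal-half tissue (0.99) and lower than in yolk sac (-1.16). Both caudal-half arrays of Vcam1 (3.72 and 3.46) and the first yolk sac array of Plat (3.22) were inside the bacterial control range. On leaving out at least 1 array, calls were lost for Plat and Hlx against caudal-half tissue, Apln in heart tube against yolk sac, and Rcan1 and Dusp5 in caudal-half tissue against yolk sac. Dll4, a Notch ligand of tip cells chosen after its values were seen, was at 5.16 and 5.56 in heart tube, 7.0 and 6.80 in caudal-half tissue, and 7.13 and 6.53 in yolk sac. It was lower in heart tube by -1.54 and -1.47 (limma adjusted p = 0.0232 and 0.0155). The alternatives were not followed for the calls of Dll4, for that of Rcan1 in heart tube, or for others outside the naming rule. Egr3, an early response factor also chosen after its values were seen, read 6.49, 6.52 and 6.45 on average in heart tube, caudal-half tissue and yolk sac. Other early response factors of the list did differ. Egr2 was lower in heart tube than in caudal-half tissue (-1.03, limma adjusted p = 0.0368). In heart tube against yolk sac, Egr1 was lower (-0.97) and Nr4a1 higher (1.06, limma adjusted p = 0.0212 and 0.0372). Nr4a2 and Nr4a3 were not called.

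**Figure D5:**
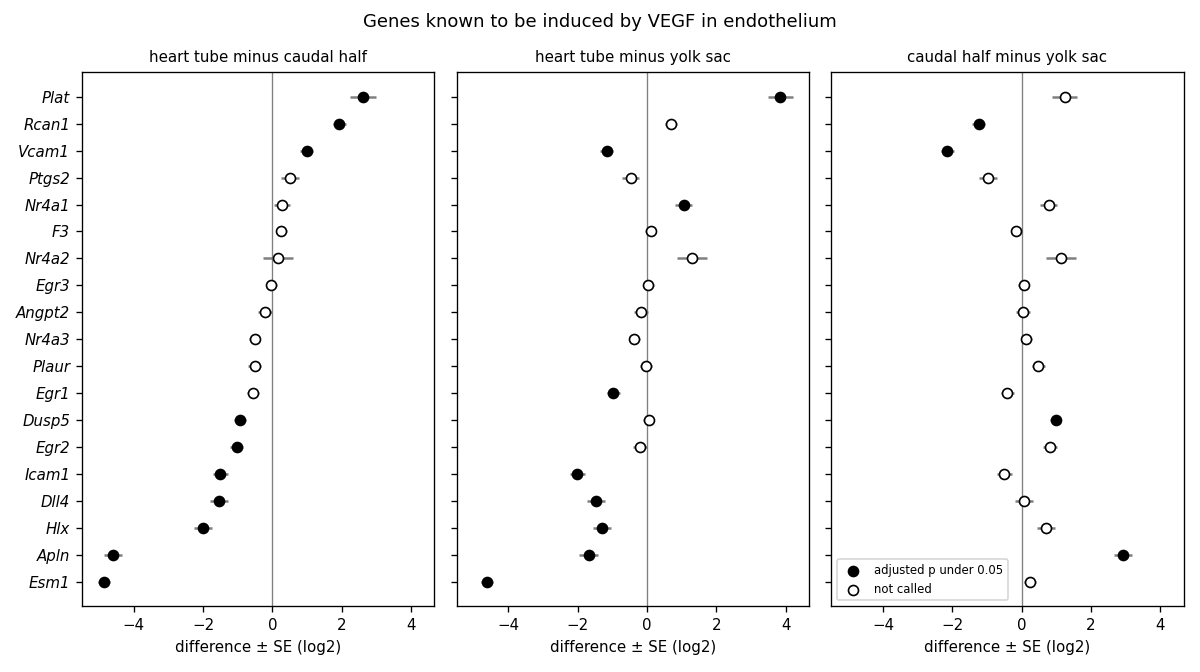
Differences between tissues (log2 scale, horizontal axis; bars are standard errors) for 19 genes known to be induced by VEGF in endothelium, ordered by heart tube minus caudal-half tissue. Filled points are called; Esm1 and Apln lie lowest and Plat highest in the first comparison.

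Regulators of the receptors had calls in all 3 comparisons, where 5.51%, 11.8% and 9.08% of all genes were called. Of 18 genes that modify receptor activity or uptake, 1 was higher and 2 lower in heart tube than in caudal-half tissue, 1 higher and 4 lower than in yolk sac, and 1 higher and 4 lower in caudal-half tissue than in yolk sac (medians -0.071, -0.29 and -0.12). Dab2, an endocytic adaptor also used as a visceral endoderm marker, was lower in heart tube and caudal-half tissue than in yolk sac (both -2.09 ± 0.16). Itgb3, an integrin subunit also on the leukocyte and megakaryocyte list, was lower in heart tube by -3.13 and -2.10, and Spry4, a feedback inhibitor of receptor tyrosine kinases, by -1.5 and -1.21, than in caudal-half tissue and in yolk sac. The heart tube arrays of Itgb3 read 3.81, inside the bacterial control range, and 5.41. Itgav, the integrin partner of Itgb3, was higher in heart tube than in caudal-half tissue (0.98) and lower in caudal-half tissue than in yolk sac (-0.99). Cdh5, the endothelial cadherin that associates with Kdr, was lower in heart tube than in yolk sac (-0.87), and Ptprb, a phosphatase of endothelial receptors, (-1.21) and Myo6, a motor of endocytosis, (-0.95) were lower in caudal-half tissue than in yolk sac. Of the calls named here, those of Dab2 held without each single array, and all others were lost on leaving out at least 1.

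Of 15 transcription factor genes known to act on receptor or neuropilin genes or in the same vessels, 0 were higher and 3 lower in heart tube than in caudal-half tissue. They were Sox17 (-1.31), Sox18 (-1.15) and Mef2c (-0.98), and each of these calls was lost on leaving out at least 1 array (highest limma adjusted p 0.123, 0.142 and 0.222). Against the yolk sac 4 were higher in heart tube, namely Foxc2 (6.88), the early ETS factor Etv2 (3.40), Foxc1 (2.92) and Prox1 (2.84). The 4 lower ones, outside the naming rule and given to complete the count, were Sox18 (-1.64), Sox17 (-1.23) and the ETS factors Erg (-0.99) and Fli1 (-0.78). The alternatives were not followed for these lower calls. In the caudal-half tissue 4 were higher than in yolk sac, namely Foxc2 (5.89), Foxc1 (3.16), Etv2 (2.92) and Mef2c (0.95), and 0 were lower. Among the higher calls against the yolk sac, those of Foxc1, Prox1 and Mef2c, and that of Etv2 in caudal-half tissue, were lost on leaving out at least 1 array. The median differences were -0.23, -0.03 and 0.41. Foxc2 in yolk sac (2.71 and 3.42) was inside the bacterial control range, as was 1 yolk sac array each of Etv2 (3.93, beside 5.46) and Foxc1 (3.75, beside 5.09). Of the 70 differences of pathway genes picked by the naming rule, 27 kept their call under all 13 alternatives planned, among them those given for Furin, Sema3a, Sema3g, Esm1, Dab2 and Foxc2. The other 43 were lost on leaving out at least 1 array. The linear reading, among the 13, could not change any call.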

How the data were processed

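RNA of 6 sorted samples was hybridised to 1 Affymetrix mouse array each. Per the submitters' processing notes, the authors ran RMA (affy) and deposited 1 intensity per probe set; the sources used here give no version, chip definition or filter. Those values reached 2172540, beyond a scanner's 65535, while their natural log ran from 0.899 to 14.6, so the natural log was used and read as the RMA log2 value. Probe sets were named from the platform annotation: 34958 of 45101 carried 1 symbol, 932 several and 9211 none, and 64 were controls. The brightest probe set over 6 arrays stood for a gene.

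With limma 3.58.1 (R 4.3.3), a mean per tissue was fitted over all 6 arrays (3 residual and 3.48 prior degrees of freedom), with 3 two-sided comparisons and Benjamini-Hochberg adjustment over 18193 genes. The number of arrays limits precision: differences had a median standard error of 0.210, and the smallest one called was 0.73, 0.64 and 0.66 in the 3 comparisons. The fit was tested on simulated data. Named were all 9 members, up to 4 called genes with the largest difference per pathway list and comparison, up to 3 per marker list, the genes of the sort, and the 2 genes most like each called member. The members and lists were chosen with earlier results of these data known. The alternatives were averaging the probe sets of each gene, a filter on dim genes, quantile normalization, a linear reading, an intensity trend, a replicate block, fits of 2 tissues and leaving out each array.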

Additional observations from a re-analysis of the deposited data

How the results depend on the processing

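With 2 arrays per tissue, most limits come from single arrays. Leaving out 1 array leaves a tissue with a lone array that is assumed to vary like the others. The counts of genes called then ran from 376 to 899 for heart tube minus caudal-half tissue, 936 to 1794 for heart tube minus yolk sac and 638 to 1155 for caudal-half tissue minus yolk sac, and the VEGF genes called from 1 to 2 and from 3 to 6, with 0 throughout for caudal-half tissue minus yolk sac. The dim signal of some genes limits them further.

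For heart tube minus caudal-half tissue, 4 VEGF genes were called with the mean of all probe sets and with an intensity trend, the additions being Kdr (limma adjusted p = 0.0483 and 0.0130) and Flt1 (0.0444 and 0.0115). Kdr has 1 probe set, so averaging left its own values unchanged. With the trend, 2 were called for caudal-half tissue minus yolk sac, Flt1 (limma adjusted p = 0.0115) and Nrp1 (0.0221). Over all genes, same-numbered replicates did not deviate together (r = -0.0068 to 0.0468 between tissues), so the numbers were not taken as pairs. Among the VEGF genes, however, Kdr, Nrp1, Nrp2 and Vegfc read higher on the second array in every tissue, and Pgf read lower. Flt1, Flt4, Vegfa and Vegfb were mixed. With the replicate number as a block, 776, 1876 and 1356 genes and 3, 6 and 0 VEGF genes were called in the 3 comparisons, Kdr being the addition (-1.09, limma adjusted p = 0.0308). The hybridisation controls averaged 11.01, 11.15 and 11.29 on the first arrays of heart tube, caudal-half tissue and yolk sac and 10.74, 10.66 and 10.80 on the second.

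Relative to the endothelial markers, a setting added after seeing the data, 8261, 14829 and 3476 genes and 4, 3 and 0 VEGF genes were called. Signs then turned for heart tube minus caudal-half tissue in Nrp1 (0.35), Vegfa (0.36) and Vegfc (0.18), for heart tube minus yolk sac in Nrp1 (0.18), Vegfa (0.45), Vegfb (0.76), Vegfc (0.034), Pgf (0.95), Ccbe1 (0.083), Fyn (0.25), Pik3r1 (0.26), Cdh5 (0.17) and Plxnd1 (0.29), and for caudal-half tissue minus yolk sac in Kdr (0.10) and Vegfa (0.094). These turns follow from its shift of all genes.

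Uncalled values that turned elsewhere were Vegfa for heart tube minus caudal-half tissue (0.083) and Flt4 for caudal-half tissue minus yolk sac (-0.14) with the mean of all probe sets, Pgf for heart tube minus yolk sac without the first yolk sac array (-0.46 to 0.28 over the arrays left out), and Vegfb for heart tube minus yolk sac (-0.59 to 0.032) and Vegfa for caudal-half tissue minus yolk sac (-0.68 to 0.17) without the second. The call of Nck2 for heart tube minus yolk sac turned to -0.10 with the mean of all probe sets; the cause was not tested. Of 162 VEGF values with an array left out, 149 kept direction and call and 10 lost a call, and of 189 under the other planned settings 180 did and 7 gained one. The linear reading, among those other settings, only rescales all values and was bound to keep both.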

Other observations

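Heparan sulphate binds VEGF, and genes of its carriers and synthesis also differed between the tissues. Of 10 measured, 4 were higher and 0 lower in heart tube than in caudal-half tissue, 3 higher and 1 lower than in yolk sac, and 1 higher and 2 lower in caudal-half tissue than in yolk sac (medians 0.59, -0.12 and -0.22). Gpc1, the membrane proteoglycan glypican-1, was higher in heart tube by 1.19 ± 0.19 and 2.40 ± 0.19 and higher in caudal-half tissue than in yolk sac by 1.2. Ext1, an enzyme that builds the chain, was higher in heart tube by 0.88 and 1.45, and Sdc1, a syndecan, by 0.92 and 1.07. Sdc4, another syndecan, was lower in heart tube (-1.34) and caudal-half tissue (-1.63) than in yolk sac. Sdc2 was higher in heart tube than in caudal-half tissue (0.91), a call lost in 11 of 13 other settings, among them leaving out any 1 of the 6 arrays, and lower in caudal-half tissue than in yolk sac (-1.10). The calls of Gpc1 and Ext1 in heart tube against the yolk sac and both of Sdc4 held under all 13, and the other calls named here were lost under at least 1.

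Genes that carry the signal inside the cell were called at rates near or below those of all genes, which were 5.51%, 11.8% and 9.08% in the 3 comparisons. Of 29 measured, 1 was higher in heart tube than in caudal-half tissue, 1 higher and 3 lower than in yolk sac, and 1 higher in caudal-half tissue than in yolk sac (medians -0.11, -0.13 and 0.047). Nos3, endothelial nitric oxide synthase, was at 7.46 and 7.54 in heart tube and 6.51 and 6.67 in caudal-half tissue (0.91 ± 0.17, limma adjusted p = 0.0358). Pxn, the adhesion adaptor paxillin, was lower in heart tube than in yolk sac (-1.23), as were Fyn (-0.79) and Pik3r1 (-0.78), and Nck2 was higher (0.73, but -0.10 with the mean of all its probe sets). Src, a kinase downstream of Kdr, was higher in caudal-half tissue (8.37 and 7.07) than in yolk sac (4.92 and 5.76) by 2.38 ± 0.46. All 6 calls named here were lost on leaving out at least 1 array.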
